A study of Mus musculus with 3 samples.

Results

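The transcripts described here encode aminoacyl-tRNA synthetases, chosen by gene symbol from the tables of macrophages sorted from inflamed mouse lung. They comprise 36 of the 12880 genes with a value in any library. Of these, 20 encode cytosolic synthetases and 16, whose symbols carry the suffix 2, encode synthetases of the mitochondrion. All 36 had a value in every library, so no member was lost to the tables' limit on low values. The cells came from LysM-GFP mice on the C57BL/6 background, aged 6 to 8 weeks, in which the lysozyme M locus drives a green fluorescent protein in myeloid cells. Acute lung injury was set off by nebulized lipopolysaccharide (LPS), a bacterial cell wall component, at 1 mg/ml. GFP-positive cells that lacked the neutrophil antigen Ly6g and carried the Fc receptor CD64 were sorted at 0 h, 4 h and 24 h. The treatment text is the same for all samples, so whether the 0 h mice received LPS is not given in the labels. Each time point has 1 library, and how many mice it holds is not given in the sources used here. No difference between time points therefore has a replicate check, and no p-value was computed.

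Aminoacyl-tRNA synthetases join each amino acid to its transfer RNA and so set the supply of charged tRNA for translation. The cytosolic and mitochondrial protein synthesis machineries mostly use separate enzymes, encoded by separate nuclear genes. Gars and Kars are exceptions, since each gene gives rise to both a cytosolic and a mitochondrial form, and Eprs encodes a fused enzyme for glutamate and proline. Several cytosolic synthetases sit together with scaffold proteins in the multisynthetase complex. In many cell types the transcription factor ATF4, which is made when amino acids are short or the endoplasmic reticulum is stressed, activates genes of cytosolic synthetases through C/EBP-ATF response elements (CARE).

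RefSeq promoters on build GRCm38.p6, the build that mm10 also names, were matched to 26 of the 36 genes. Cars, Hars, Lars, Mars, Nars, Rars, Vars, Wars, Hars2 and Pars2 were not matched. Each promoter window ran from 250 bases before to 50 bases after the start site and was searched on both strands. The CARE letters TGATGNAA were in the windows of Aars, Gars, Iars, Tars and Yars, which are 5 of the 12 cytosolic genes with a promoter, and in 0 of 14 mitochondrial genes. Over all RefSeq genes 4.51% of 27025 held a match. The stretch from 130 bases before to 20 bases after the start site is printed for these genes, with the match in capitals, because the element is the one through which ATF4 is known to act. Sars and Eprs are shown beside them, without a match in their windows, because Sars had the same order of levels over the libraries as Gars, and Eprs the same as Iars and Aars.
Aars, chr8:111033712-111033861 on the plus strand: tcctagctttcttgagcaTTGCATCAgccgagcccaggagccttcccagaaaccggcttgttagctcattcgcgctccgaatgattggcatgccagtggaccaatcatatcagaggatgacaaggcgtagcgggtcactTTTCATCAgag
Gars, chr6:55037871-55038020 on the plus strand: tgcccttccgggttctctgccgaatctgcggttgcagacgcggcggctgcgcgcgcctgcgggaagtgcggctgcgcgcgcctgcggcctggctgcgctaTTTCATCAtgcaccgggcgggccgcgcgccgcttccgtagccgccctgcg
Iars, chr13:49682000-49682149 on the plus strand: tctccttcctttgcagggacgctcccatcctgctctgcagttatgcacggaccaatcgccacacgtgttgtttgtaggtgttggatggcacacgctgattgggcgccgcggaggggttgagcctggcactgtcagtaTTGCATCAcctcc
Tars, chr15:11399639-11399788 on the minus strand: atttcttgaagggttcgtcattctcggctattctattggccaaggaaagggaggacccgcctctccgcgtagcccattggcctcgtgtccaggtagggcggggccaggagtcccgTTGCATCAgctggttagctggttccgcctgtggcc
Yars, chr4:129189773-129189922 on the plus strand: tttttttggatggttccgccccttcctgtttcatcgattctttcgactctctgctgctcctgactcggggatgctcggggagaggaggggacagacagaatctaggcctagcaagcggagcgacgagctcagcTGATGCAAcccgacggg
Sars, chr3:108445240-108445389 on the minus strand: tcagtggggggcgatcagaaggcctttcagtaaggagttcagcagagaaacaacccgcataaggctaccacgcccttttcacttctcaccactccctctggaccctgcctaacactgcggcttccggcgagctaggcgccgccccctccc
Eprs, chr1:185362914-185363063 on the plus strand: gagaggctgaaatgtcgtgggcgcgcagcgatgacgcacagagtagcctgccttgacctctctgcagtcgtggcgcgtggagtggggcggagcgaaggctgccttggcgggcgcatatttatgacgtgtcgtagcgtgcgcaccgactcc
Aars held 2 matches, the first beginning 112 bases upstream of the start site. The match in Gars began 30 bases upstream and that in Tars 15 bases upstream. The other match in Aars and those in Iars and Yars lay downstream of the start site. In all of these genes except Yars the match lay on the strand opposite to transcription, so it is printed as its reverse complement. The YY1 letters AANATGGCG were in 4 of 14 mitochondrial genes (Aars2, Lars2, Wars2 and Yars2) and in 1 of 12 cytosolic genes (Farsa), against 2.76% of all genes. The ETS letters CCGGAAG were in 4 genes of each class, against 9.93% of all genes. The E-box CACGTG was in Aars, Farsb, Iars and Tars and in Ears2 (8.09% of all genes). No 2 of these matches overlapped in a member's window. These are matches of letters, and no binding was measured.

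The libraries held 20379236 to 25135476 reads over the listed genes, and levels are given as reads divided by a size factor for each library, called normalized counts. Folds are ratios of these counts with 95% Clopper-Pearson intervals, which hold counting error alone. The reads carry no molecular identifiers and are not independent molecules, so even for counting error the intervals can be too narrow. Marker transcripts of several cell types differed between libraries. Over the 0 h, 4 h and 24 h libraries, 12 alveolar macrophage markers summed to 777009, 297410 and 445329 normalized counts, with 10 of 12 at least 1.5-fold lower at 4 h than at 0 h. Those of 10 classical monocyte markers were 136452, 530530 and 104600, with 9 of 10 at least 1.5-fold higher at 4 h. Their sum at 24 h hides most of the genes, because Fn1 (87223 at 0 h, 25383 at 24 h) and Cd14 (32844 and 19733) weigh heavily in it. Of these 10 markers, 7 exceeded their 0 h level by 1.5-fold or more at 24 h. The other 3 (Cd14, Chi3l4 and Fn1) were below it by that much, and the median log2 ratio was 1.67. The neutrophil list, in which 7 of 11 genes had values at 0 h and 4 h and all 7 were higher at 4 h, summed to 3379, 24118 and 6944, while Ly6g, Mpo and Elane had no row. Markers of lung epithelium summed to 14938, 15526 and 15013, but 3 of 8 were higher and 2 of 8 lower by at least 1.5-fold at 4 h than at 0 h. Among them Scgb1a1, of club cells, had 90.6, 3977 and 105 normalized counts and Epcam 953, 159 and 334. Of 8 lymphocyte markers only Cd79b had a value at 0 h (38.3), and 7 had values at 4 h and 24 h, summing to 159 and 320. The 8 macrophage markers summed to 117353, 191117 and 115967, and 3 were higher and 2 lower by at least 1.5-fold at 4 h. Among them Csf1r had 29673 normalized counts or more in every library. Fcgr1, which encodes CD64, stood at 2479, 7237 and 2887, 2.92-fold higher at 4 h than at 0 h (2.79 to 3.06). Mertk was 6.31-fold lower at 4 h (5.96 to 6.68). Over all genes, 25.2% were higher and 23.6% lower by at least 1.5-fold at 4 h than at 0 h. The female-specific RNA Xist stood at 12798, 5.08 and 0.822 normalized counts at 0 h, 4 h and 24 h, and the Y-linked gene Ddx3y at 3.74, 5070 and 1937, so the 0 h library also stood apart from the others in sex-linked RNA. The labels give no sex. In bulk samples fewer cells of a type and less RNA per cell cannot be told apart. The part of these differences between libraries in the ratios of the synthetases was not tested.

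Cytosolic synthetases were the more abundant class in every library. On a scale of normalized counts per kilobase of exon, which allows genes to be compared, the median of the 20 cytosolic genes was 586 at 0 h, 594 at 4 h and 619 at 24 h. The median of the 16 mitochondrial genes was 113, 102 and 140 on the same scale, so the cytosolic median was 5.20, 5.83 and 4.41 times the mitochondrial one. Gars, the glycyl-tRNA synthetase, had the highest level per kilobase at 0 h (2382) and 24 h (2021), and Nars, the asparaginyl enzyme, at 4 h (1680). Cars, for cysteine, was lowest of the cytosolic genes at 0 h (265) and 4 h (316), and Iars at 24 h (275). Among mitochondrial genes the leucyl enzyme Lars2 led in all 3 libraries, with 422, 1120 and 478. Lengths are the union of all annotated exons, so a gene with long exons that are not used is understated. This holds for Mars2, whose union of 11.3 kilobases is longer than the span of its row in the tables, and which is left unranked. Its levels, for the enzyme that charges the methionyl-tRNA of mitochondrial initiation, were 82.2, 99.0 and 90.4 normalized counts. All later values are normalized counts without the length correction, compared only within a gene.

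**Figure D1:**
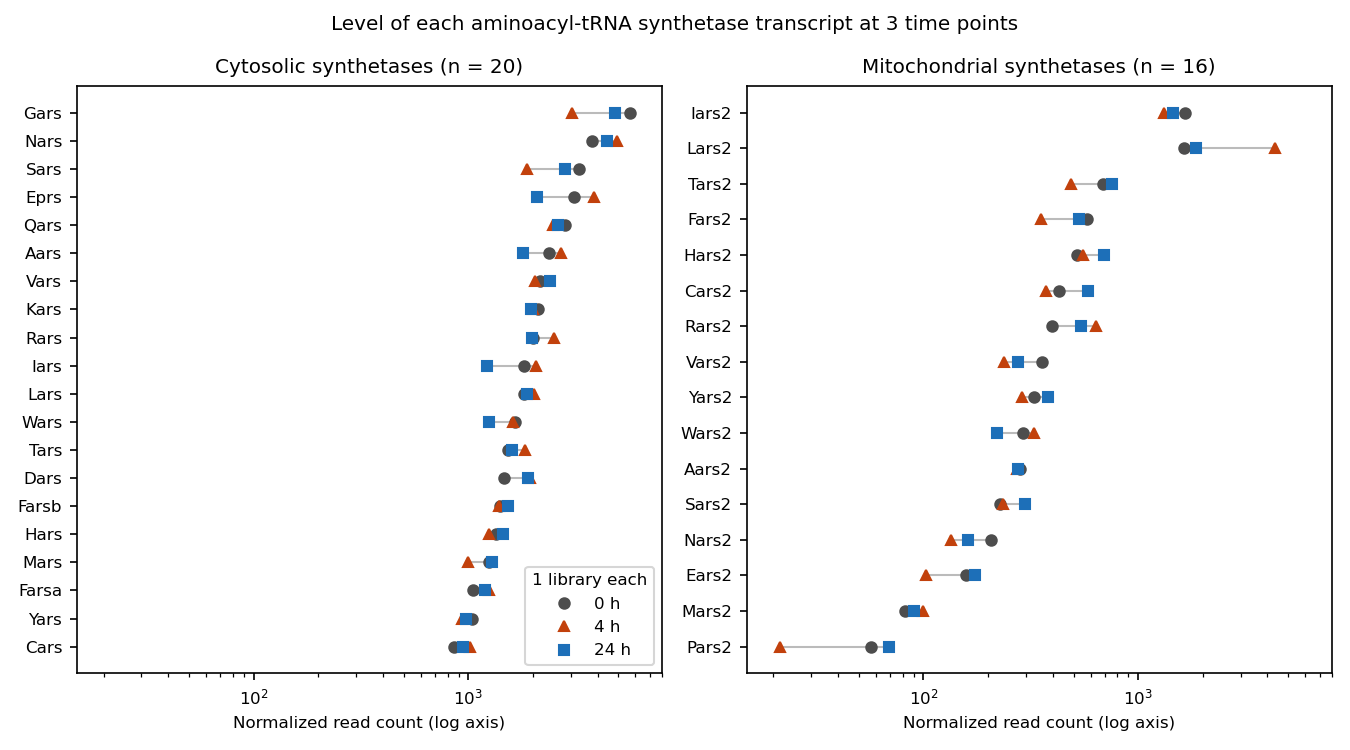
Normalized read count of each synthetase transcript on a log axis, with cytosolic enzymes in the left panel and mitochondrial enzymes in the right and 1 library at each of 0 h (circles), 4 h (triangles) and 24 h (squares). Lars2 at 4 h stands apart to the right (4360), and Gars, Sars and Pars2 at 4 h stand to the left of their other values.

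In summed level the cytosolic class differed little between the libraries. In the order 0 h, 4 h and 24 h, the 20 genes together came to 42555, 41673 and 40100 normalized counts, which is 0.979 times the 0 h sum at 4 h and 0.942 times at 24 h. The mitochondrial sum was 7898, 9803 and 8373, or 1.24 times the 0 h sum at 4 h. Lars2 alone decides the direction of that sum, since it made up 20.8%, 44.5% and 22.2% of it. Without Lars2 the other 15 genes summed to 6255, 5443 and 6510, which is 0.870 times the 0 h sum at 4 h and 1.04 times at 24 h. Thus the mitochondrial sum was highest at 4 h with Lars2 and lowest at 4 h without it.

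At 4 h against 0 h, most cytosolic synthetases were within 1.5-fold and the mitochondrial ones were more spread. A difference of at least 1.5-fold higher at 4 h was seen for 0 of 20 cytosolic and 2 of 16 mitochondrial genes, beside 25.2% of the 12512 genes with values in both libraries. A difference of at least 1.5-fold lower was seen for 2 of 20 cytosolic and 5 of 16 mitochondrial genes, beside 23.6% of all genes. The median log2 ratio of the cytosolic genes was 0.07 (-0.085 when libraries were scaled by total reads), that of the mitochondrial genes was -0.19, and that of all genes was 0.00. The cytosolic median thus exceeded the mitochondrial one by 0.27 on the log2 scale, and by 0.18 to 0.28 over the other settings tried. Scaling by total reads shifts all log2 ratios by -0.16 in this comparison, and by 0.17 and 0.32 when the 24 h library is set against those of 0 h and 4 h. Centring on the cytosolic ribosomal protein genes shifts them by 0.01, -0.56 and -0.47. The difference between the classes does not depend on such shifts. At 4 h against 0 h, all genes in the level range of the cytosolic synthetases had a median of 0.12. Those in the level range of the mitochondrial synthetases had -0.06. At 24 h these 2 medians were -0.07 and 0.03 against 0 h, and -0.20 and 0.09 against 4 h. Genes of like level thus stood in the same order as the class medians in all 3 comparisons.

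**Figure D2:**
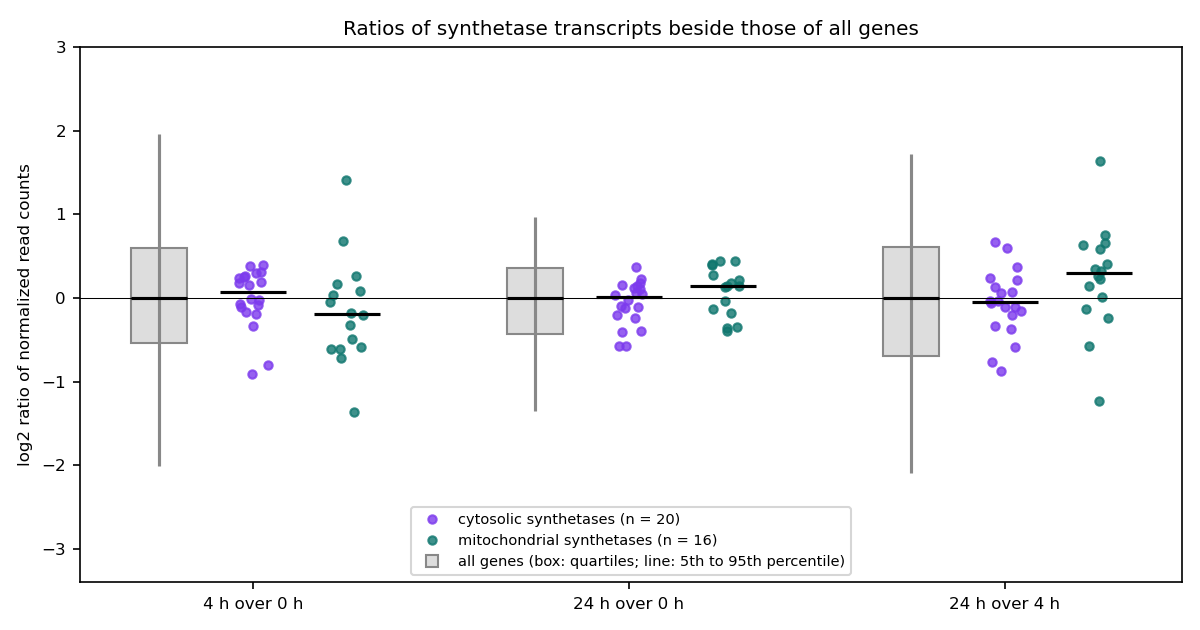
Log2 ratio of normalized counts for each cytosolic (n = 20) and mitochondrial (n = 16) synthetase in the 3 comparisons, with black lines at the class medians, beside all genes (grey boxes for the quartiles, lines for the 5th to 95th percentile). The mitochondrial median is below the cytosolic one at 4 h over 0 h (-0.19 against 0.07) and above it in both comparisons of the 24 h library (0.14 against 0.01 and 0.30 against -0.05).

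At 4 h against 0 h, Lars2 had the highest ratio of the members. Its level was 1644 at 0 h, 4360 at 4 h and 1863 at 24 h, so the 4 h library stood well above the other two, which were close together. The level was 2.65-fold higher at 4 h than at 0 h (2.50 to 2.81) and 2.34-fold lower at 24 h than at 4 h (2.22 to 2.47). The gene lies at chr9:123366927-123462666 on the plus strand (GENCODE, GRCm38), and its exons overlap those of no other annotated gene. In the authors' deposited table the log2 fold change of Lars2 at 4 h against 0 h is 1.09 with p = 0.160, the lowest p of any member there. Rn45s, the precursor of ribosomal RNA, followed the same order over the libraries, at 16294, 40071 and 20495 normalized counts, and was 2.46-fold higher at 4 h than at 0 h (2.41 to 2.51). Rn45s was looked up after the values of Lars2 were seen. A sequence search set 292 annotated transcripts of the members against those of mt-Rnr1, mt-Rnr2 and Gm42418. It gave 0 members with a match at an E-value limit of 1e-05. Rn45s was not among the searched sequences, and whether reads of ribosomal RNA were counted toward Lars2 was not tested.

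Rars2, the mitochondrial arginyl enzyme, was the other member past 1.5-fold higher at 4 h. Its level was 396, 637 and 539 at 0 h, 4 h and 24 h, so both later libraries were above the 0 h library. The ratio was 1.61-fold at 4 h (1.41 to 1.84) and 1.36-fold at 24 h (1.20 to 1.54), and its interval at 4 h reaches below 1.5. Scaled by total reads, or by the authors' deposited log2 fold change, its log2 ratio at 4 h was 0.53, which is within 1.5-fold.

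The 5 mitochondrial genes at least 1.5-fold lower at 4 h were Pars2, Fars2, Ears2, Nars2 and Vars2, which charge the tRNAs of proline, phenylalanine, glutamate, asparagine and valine. Fars2 stood at 581, 352 and 530 at 0 h, 4 h and 24 h, 1.65-fold lower at 4 h than at 0 h (1.43 to 1.91). Ears2 stood at 158, 103 and 174, and was 1.53-fold lower at 4 h (1.17 to 2.03). For both enzymes the 0 h and 24 h libraries were close and the 4 h library was low. Nars2 stood at 206, 135 and 162 and was 1.53-fold lower at 4 h (1.21 to 1.95). Vars2 stood at 357, 237 and 277 and was 1.5-fold lower at 4 h (1.26 to 1.80), which places it at the limit. In these genes the 24 h library lay between the others, and was still 1.27-fold (1.05 to 1.55) and 1.29-fold (1.11 to 1.5) lower than the 0 h library. Pars2 had the lowest ratio, with levels of 57.0, 21.6 and 69.0, and was 2.64-fold lower at 4 h. This value rests on 61, 17 and 84 reads, so its counting interval runs from 1.52 to 4.82. With a pseudocount of 20, and in the authors' deposited table, Ears2, Nars2 and Vars2 were within 1.5-fold. Among the genes within 1.5-fold, Tars2, the mitochondrial threonyl enzyme, came nearest to the limit, with levels of 685, 487 and 758, 1.40-fold lower at 4 h (1.24 to 1.59). Exons of Ears2, Fars2 and Vars2 overlap exons of Ubfd1, Lyrm4 and Gm20483 on the opposite strand, and whether reads were counted by strand is not given in the sources used here.

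Gars and Sars were the 2 cytosolic genes past 1.5-fold at 4 h, both lower. Gars stood at 5670, 3024 and 4810 at 0 h, 4 h and 24 h, and was 1.88-fold lower at 4 h than at 0 h (1.79 to 1.97). Sars, the seryl enzyme, stood at 3267, 1870 and 2828, and was 1.75-fold lower at 4 h (1.64 to 1.86). In each gene the 4 h library was low and the 24 h library was near the 0 h library, at 1.18-fold (1.14 to 1.22) and 1.15-fold (1.10 to 1.21) lower. Gars made up 13.3% of the cytosolic sum at 0 h, 7.26% at 4 h and 12.0% at 24 h. Both enzymes belong to class II, the class with an antiparallel catalytic fold, and charge small amino acids. Gars lies at chr6:55038007-55079500 on the plus strand and Sars at chr3:108424865-108445209 on the minus strand, with no exons shared with other annotated genes.

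The remaining 18 cytosolic genes ran from 1.26-fold lower to 1.32-fold higher at 4 h. Mars, the methionyl enzyme whose gene overlaps Ddit3 on the opposite strand, was at the low end with 1253, 995 and 1283. Dars, for aspartate, was at the high end with 1465, 1933 and 1892 (1.32-fold, 1.23 to 1.42), and Nars followed with 3784, 4917 and 4417 (1.30-fold, 1.24 to 1.36). In both of these the 4 h and 24 h libraries were above the 0 h library. Of the genes with a CARE match, Aars was 1.13-fold higher (1.07 to 1.20), Iars 1.14-fold higher (1.07 to 1.22) and Tars 1.20-fold higher (1.11 to 1.28) at 4 h. Gars (1.88-fold) and Yars, for tyrosine (1.12-fold, 1.02 to 1.23), were lower, so the genes that share these letters stood on both sides of 0.

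**Figure D3:**
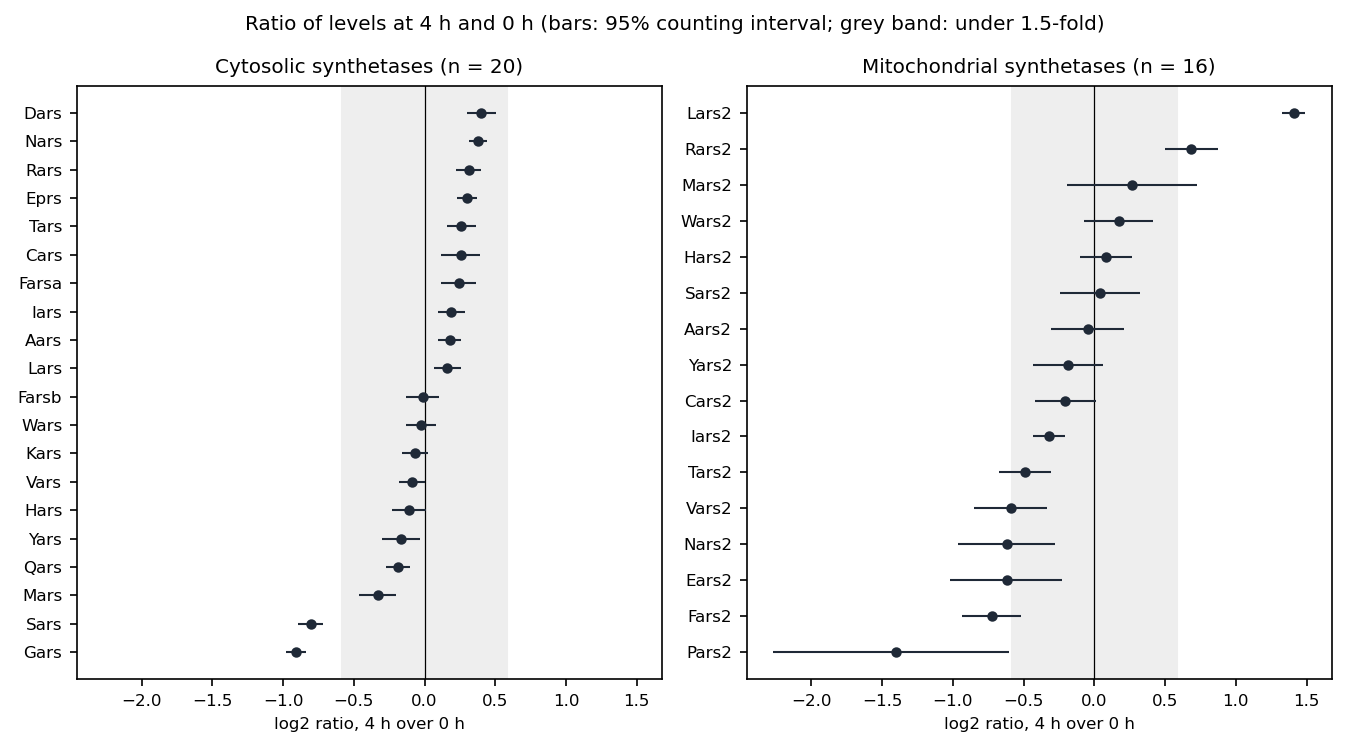
Log2 ratio of the level at 4 h over 0 h for each synthetase, cytosolic on the left and mitochondrial on the right, with bars for the 95% counting interval and a grey band for ratios under 1.5-fold. Only Sars and Gars leave the band among the cytosolic enzymes, while Lars2 lies far to the right and Pars2, with a wide bar from few reads, far to the left.

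Enzymes of the multisynthetase complex were within 1.5-fold at 4 h in 8 of 8 cases, beside 51.2% of all genes and 10 of 12 cytosolic enzymes outside the complex. The median log2 ratios of these enzymes were 0.17 and -0.02. Of its scaffold genes, Aimp1 stood at 1065, 840 and 1355 at 0 h, 4 h and 24 h, Aimp2 at 363, 296 and 417, and Eef1e1 at 407, 504 and 431. All 3 scaffolds were within 1.5-fold at 4 h against 0 h, and Aimp1 was 1.61-fold higher at 24 h than at 4 h (1.47 to 1.77). By catalytic class, with Eprs counted in class I although it also holds a class II part, 0 of 10 class I and 2 of 10 class II cytosolic genes were at least 1.5-fold lower at 4 h. The 2 are Gars and Sars, and the class II share (20%) was near the 23.6% of all genes. The medians of these classes were 0.07 and 0.08 on the log2 scale.

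Enzymes for the same amino acid could be compared in 17 pairs of a cytosolic and a mitochondrial gene, in which Eprs is used for glutamate and for proline and Fars2 is used with both chains of the cytosolic phenylalanyl enzyme. The log2 ratio at 4 h over 0 h was higher for the cytosolic gene in 11 pairs and for the mitochondrial gene in 6, with a median difference of 0.46. The widest difference in favour of the cytosolic gene was in the proline pair, at 1.66, and rests on the few reads of Pars2. Asparagine followed at 0.99, from Nars and Nars2, and the alpha chain of the phenylalanyl enzyme at 0.96, from Farsa and Fars2. In the other direction leucine had the widest difference, at -1.25, followed by serine at -0.85 and methionine at -0.60. At 24 h over 0 h the cytosolic ratio was higher in 5 pairs and the mitochondrial in 12, with a median difference of -0.30.

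**Figure D4:**
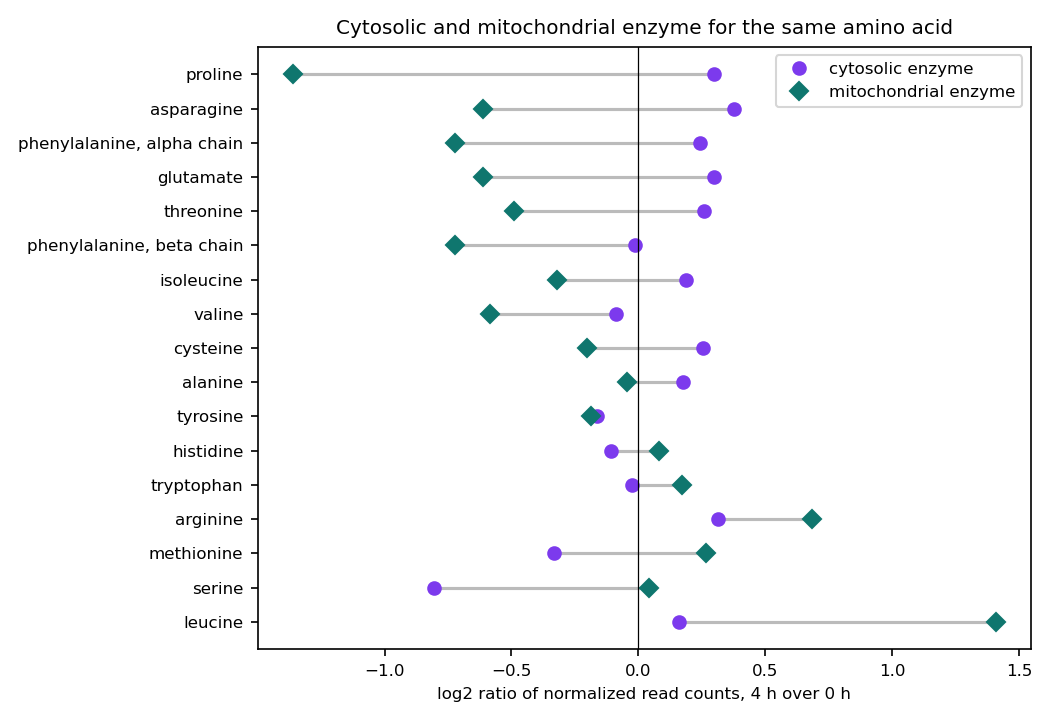
Log2 ratio of normalized counts (pseudocount of 1) at 4 h over 0 h for the cytosolic enzyme (circles) and mitochondrial enzyme (diamonds) that charge the same amino acid, 17 pairs ordered by their difference. The proline pair at the top is 1.66 apart and the leucine pair at the bottom is 1.25 apart with the order of the enzymes exchanged.

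At 24 h against 0 h no synthetase was 1.5-fold apart. The count was 0 of 36 higher, beside 13.4% of 12481 genes, and 0 of 36 lower, beside 19.0%. The medians were 0.01 for cytosolic and 0.14 for mitochondrial genes, and centring on ribosomal protein genes turned them to -0.55 and -0.42, with 9 cytosolic and 6 mitochondrial genes at least 1.5-fold lower. Scaling by total reads put 2 mitochondrial genes at least 1.5-fold higher. The lowest ratios were those of Iars, the isoleucyl enzyme, at 1821, 2074 and 1219 over 0 h, 4 h and 24 h (1.49-fold lower at 24 h than at 0 h, 1.40 to 1.60), and of Eprs, at 3118, 3837 and 2098 (1.49-fold lower, 1.41 to 1.57). In the authors' deposited table Eprs has the lowest p of the members in this comparison, at 0.341. Wars, the tryptophanyl enzyme, stood at 1648, 1618 and 1251, level at 4 h and 1.32-fold lower at 24 h (1.23 to 1.41). The highest ratio was that of Cars2, the mitochondrial cysteinyl enzyme, at 429, 372 and 585 (1.36-fold higher, 1.21 to 1.54).

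At 24 h against 4 h, 11 members were past 1.5-fold. The comparison shares the 4 h library with that of 4 h against 0 h, so their values are not independent. A level at least 1.5-fold higher at 24 h was seen for 2 of 20 cytosolic genes (Gars and Sars) and 5 of 16 mitochondrial genes (Cars2, Ears2, Fars2, Pars2 and Tars2), beside 26.1% of 12684 genes. A level at least 1.5-fold lower was seen for 3 of 20 cytosolic genes (Aars, Eprs and Iars) and 1 of 16 mitochondrial genes (Lars2), beside 28.2%. The median log2 ratio was -0.05 for the cytosolic genes (0.28 when scaled by total reads) and 0.30 for the mitochondrial genes (-0.17 when centred on ribosomal protein genes).

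Eprs was 1.83-fold lower at 24 h than at 4 h (1.73 to 1.93) and Iars 1.70-fold lower (1.59 to 1.83). Aars, the alanyl enzyme, stood at 2387, 2699 and 1794 at 0 h, 4 h and 24 h, and was 1.5-fold lower at 24 h than at 4 h (1.42 to 1.60). In these genes the 4 h library was highest and the 24 h library was lowest, also below the 0 h library. Scaled by total reads, all 3 were within 1.5-fold. Exons of Aars overlap those of Exosc6 on the same strand. Eprs and Iars belong to the multisynthetase complex, in which these 2 of 8 enzymes were at least 1.5-fold lower at 24 h than at 4 h, a share (25%) near the 28.2% of all genes.

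Among the genes higher at 24 h than at 4 h, Gars was 1.59-fold higher (1.52 to 1.67) and Sars 1.51-fold higher (1.42 to 1.61). Pars2 was 3.20-fold higher (1.88 to 5.75), again on few reads, and Ears2 1.69-fold (1.31 to 2.22). Cars2 was 1.57-fold higher (1.37 to 1.81), Tars2 1.55-fold (1.38 to 1.76) and Fars2 1.51-fold (1.31 to 1.74). Centred on ribosomal protein genes, all of these except Pars2 were within 1.5-fold, with Gars at a log2 ratio of 0.20 and Sars at 0.13. In the authors' deposited table, too, Pars2 alone of them is past 1.5-fold. The mitochondrial genes in this group were lower at 4 h than in the other libraries, as were Gars and Sars. In the authors' deposited table the lowest p of a member in this comparison is 0.218, for Lars2, and 0 of 36 members have a p below 0.05 in any of the 3 tables, beside 5.16% of all genes for 4 h over 0 h, 3.16% for 24 h over 0 h and 4.44% for 24 h over 4 h. These p-values come from 1 library per time point.

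**Figure D5:**
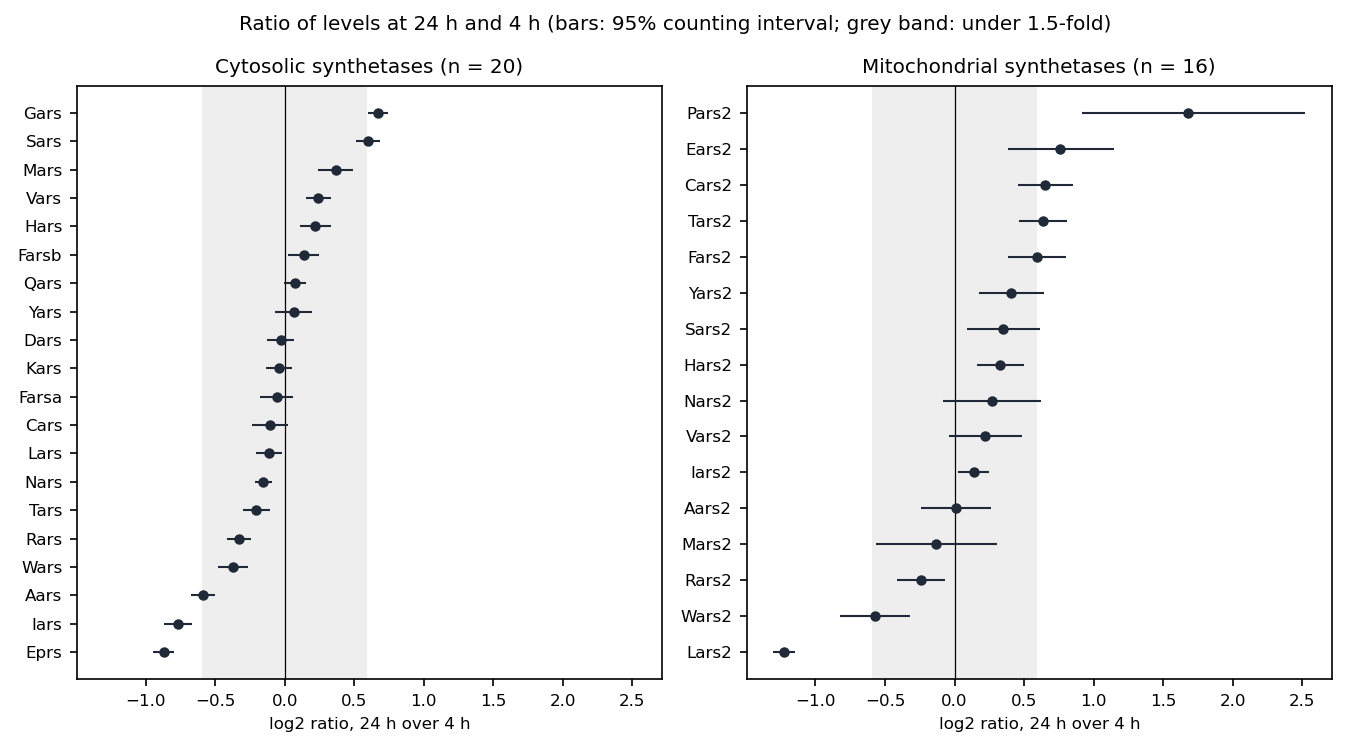
Log2 ratio of the level at 24 h over 4 h for each synthetase, cytosolic on the left and mitochondrial on the right, with bars for the 95% counting interval and a grey band for ratios under 1.5-fold. Eprs, Iars and Aars lie to the left of the band and Gars and Sars to the right, while Lars2 (2.34-fold lower) and Pars2 (3.20-fold higher) are the outermost mitochondrial enzymes.

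Over the 3 libraries, 15 of 20 cytosolic and 7 of 16 mitochondrial synthetases stayed within 1.5-fold in all 3 comparisons, or 22 of 36 together, beside 30.7% of 12481 genes. The library with the highest level was that at 4 h for 10 of 20 cytosolic and 4 of 16 mitochondrial genes, beside 40.4% of all genes. The lowest level was at 4 h for 8 of 20 cytosolic and 10 of 16 mitochondrial genes (40.1% of all genes), and at 24 h for 6 of 20 and 1 of 16 (31.7%). These orders depend on the scale: centred on ribosomal protein genes, the lowest level was at 24 h for 18 of 20 and 11 of 16, beside 64.0% of all genes. Aars2, for alanine, was the flattest of the mitochondrial genes, at 283, 274 and 276 normalized counts. Iars2, for isoleucine, stood at 1658, 1326 and 1460.

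The genes for mitochondrial ribosomal proteins, which use the charged tRNAs, had a median log2 ratio of -0.31 at 4 h against 0 h over 75 genes, with 18 lower and 1 higher by at least 1.5-fold. The share that was lower, 24%, was near the 23.6% of all genes, while 25.2% of all genes were higher. The medians of the mitochondrial ribosomal proteins at 24 h were 0.33 against 0 h and 0.61 against 4 h. The mitochondrial synthetases had medians of -0.19, 0.14 and 0.30 in the same comparisons. Cytosolic ribosomal proteins (80 genes) had medians of -0.01, 0.56 and 0.47, where cytosolic synthetases had 0.07, 0.01 and -0.05. The list of mitochondrial ribosomal proteins was added after the values of the synthetases were seen. Of 7 partners of mitochondrial charging and initiation, Mtif3, an initiation factor, was the only gene past 2-fold, at 261, 118 and 250 normalized counts at 0 h, 4 h and 24 h (2.21-fold lower at 4 h than at 0 h, 1.74 to 2.82).

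A list of the amino acid stress response, which holds ATF4 targets, Atf4 itself and the upstream kinase gene Eif2ak4, did not share a direction at 4 h. Of its 18 measured genes, 4 were higher and 3 lower by at least 1.5-fold in the 4 h library than in the 0 h library, with a median log2 ratio of 0.16. These shares, 22.2% and 16.7%, were no larger than the 25.2% and 23.6% of all genes. Slc7a11, the cystine transporter, stood at 1378, 14308 and 505 at 0 h, 4 h and 24 h, 10.4-fold higher at 4 h (9.83 to 11.0). Asns, the asparagine synthetase that is a classical CARE target, stood at 139, 618 and 218, 4.44-fold higher (3.69 to 5.37). Phgdh, the first enzyme of serine synthesis, stood at 1133, 333 and 1227 and was 3.41-fold lower (2.98 to 3.91). Shmt2, which makes glycine from serine in mitochondria, stood at 783, 369 and 760 and was 2.12-fold lower (1.85 to 2.43). Other genes of serine and glycine metabolism in the list stood on both sides. Psph was 1.26-fold lower at 4 h (0.989 to 1.61), while Psat1 was 1.14-fold (0.998 to 1.30) and Mthfd2 1.89-fold (1.74 to 2.06) higher. The intervals of Psph and Psat1 include equal levels.

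Wars is a known target of interferon-gamma in human and mouse cells. Its level at 4 h was 0.982 times that at 0 h. Of 12 other interferon-gamma responders, 10 were higher by at least 1.5-fold and 0 lower at 4 h than at 0 h, with a median log2 ratio of 1.37. The shares over all genes were 25.2% and 23.6%. Gbp5, a guanylate-binding protein, stood at 970, 7963 and 460 normalized counts (8.21-fold higher at 4 h, 7.68 to 8.77), and Cxcl10, a T cell chemokine, at 3134, 23922 and 710 (7.63-fold higher, 7.36 to 7.92). At 24 h both were below the 0 h library, as was Wars. The list as a whole was mixed in that comparison. Of the 12 responders, 2 were higher and 3 lower by at least 1.5-fold at 24 h than at 0 h. The shares over all genes were 13.4% and 19.0%.

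In the tables, 3 member rows carry the description and position of another gene. The row named Farsa has those of Farsb, the row named Vars2 has those of Vars, and the row named Hars2 has those of Dtd1, a D-aminoacyl-tRNA deacylase. Their values differed from the rows of those genes, so they were used under their symbols. Without these rows the cytosolic median exceeded the mitochondrial one at 4 h against 0 h by 0.18 in place of 0.27.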

How the data were processed

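RNA was sequenced from sorted lung macrophages, 1 library per time point, and samples were grouped by the time in the labels. The authors deposited 3 tables of 2 libraries each. DESeq2, with no version, and build mm10 are named per the submitters' processing notes. No aligner, counter or strand setting is given in the sources used here. The deposited signal values are read counts divided by a size factor within each table, and whole reads were recovered for 100% of values within 0.001 reads. No count model was fitted, because a time point with 1 library has no residual degrees of freedom. The log2 fold changes and unadjusted p-values in the authors' deposited tables are printed only where named so. The test statistic, a score that the authors deposited per the file headers, was not used.

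The 1 column headed 4h in the table of 24 h against 0 h holds the 0 h library (12310 of 12310 values equal) and was given to no sample. Over the 3 tables together, 20 rows repeated a symbol and were dropped. Size factors came from the median of ratios across 12451 genes and were 1.07, 0.788 and 1.22 for the 0 h, 4 h and 24 h libraries. Log2 ratios used a pseudocount of 1 and a fold limit of 1.5, and folds carry 95% Clopper-Pearson intervals for counting error. The steps were tested on simulated counts. Levels per kilobase used GENCODE exon unions, which count the exons of every annotated transcript. Python 3.11.15 with NumPy 2.4.6, SciPy 1.17.1, pandas 2.3.3 and matplotlib 3.10.9 was used, with BLAST 2.17.0 for the sequence search.

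The members and lists were chosen with earlier results of these data known. Of 115 listed genes outside the ribosomal lists, 105 matched by symbol and 2 by synonym, and 8 had no row. Named genes are any synthetase, with all levels for those past 1.5-fold and the most and least abundant of each class, and from other lists at most 3 genes furthest up and 3 furthest down past 2-fold, or else the most abundant. Rn45s, Tarsl2, Xist, Ddx3y, Csf1r, Fcgr1, Psat1, Psph, Mthfd2, Aimp2 and Eef1e1 were named outside that rule after their values were seen. The alternatives were scaling by total reads, centring on ribosomal proteins, the authors' scale, a mean of at least 200, a pseudocount of 20, the deposited log2 values and, added later, leaving out Lars2 or the 3 rows annotated as another gene.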

Additional observations from a re-analysis of the deposited data

How the results depend on the processing

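The sign of the difference between the class medians was kept under every setting tried, at 0.18 to 0.28 for 4 h over 0 h, -0.16 to -0.10 for 24 h over 0 h and -0.38 to -0.27 for 24 h over 4 h, and 0 of the members past 1.5-fold changed sign. Scaling by total reads, centring on ribosomal proteins and the authors' scale shift all ratios alike. Those settings therefore could not change the difference, and only the other settings could. Class medians and counts past 1.5-fold moved more. Scaled by total reads, the cytosolic median was -0.085 for 4 h over 0 h, 0.17 for 24 h over 0 h and 0.28 for 24 h over 4 h, where the mitochondrial median was 0.62. With that scaling the mitochondrial genes higher numbered 1, 2 and 9 in these comparisons, and the cytosolic genes lower at 24 h against 4 h numbered 0. Centred on ribosomal proteins, the cytosolic and mitochondrial medians were -0.55 and -0.42 at 24 h against 0 h, with 9 and 6 genes lower, and -0.51 and -0.17 at 24 h against 4 h, with 7 and 4 lower and 0 and 1 higher. With a mean of at least 200, which leaves out Ears2, Nars2, Pars2 and Mars2, mitochondrial genes lower at 4 h against 0 h numbered 2 and those higher at 24 h against 4 h numbered 3, and a pseudocount of 20 also left 2 lower at 4 h against 0 h. By the authors' deposited log2 values, which are shrunken, mitochondrial genes higher and lower at 4 h against 0 h numbered 1 and 2, and at 24 h against 4 h 0 cytosolic genes were higher and 1 lower, with 1 mitochondrial gene higher. Without Lars2, chosen after seeing the data, 1 mitochondrial gene was higher at 4 h against 0 h and 0 were lower at 24 h against 4 h. For the scalings the cause of each move is the shift of all ratios given with the results. Depth limits Pars2, Mars2 and Ears2, with 17, 78 and 81 reads in the 4 h library. No paired analysis was possible because each time point has 1 library and the labels give no replicate numbers.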

Other observations

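Genes that act on tRNA beside the synthetases differed in their order over the libraries. Aarsd1, which removes wrongly attached amino acids from alanine tRNA, had 560, 288 and 809 normalized counts in the libraries of 0 h, 4 h and 24 h, and was 2.81-fold higher at 24 h than at 4 h (2.43 to 3.26). Dtd2, a D-aminoacyl-tRNA deacylase listed under its older symbol 6530401N04Rik, stood at 157, 78.7 and 205, and was 2.60-fold higher at 24 h than at 4 h (1.96 to 3.49). Xpo5, a nuclear export receptor, had another order, with 1136, 977 and 495, and was 2.29-fold lower at 24 h than at 0 h (2.08 to 2.53). Of the 8 genes in this list 0 were at least 1.5-fold higher and 3 lower at 4 h than at 0 h. The shares over all genes were 25.2% and 23.6%.

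Tarsl2, a threonyl-tRNA synthetase-like gene outside the chosen members, was looked up after its values were seen. It had 344, 63.5 and 243 normalized counts in the same order and was 5.41-fold lower at 4 h than at 0 h (4.02 to 7.43). The cytosolic enzyme Tars was 1.20-fold higher in the same comparison. Kmo, the kynurenine hydroxylase of tryptophan breakdown, stood at 84.0, 882 and 201 and was 10.5-fold higher at 4 h than at 0 h (8.42 to 13.2), while Ido1, Ido2 and Tdo2, which begin that pathway, had no row.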
